A study of Mus musculus with 6 samples.

Results

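Chemokine receptors were examined in neutrophils of the dura mater, the tough outermost membrane around the brain, through 9 genes: *Ccr1*, *Ccr2*, *Ccr3*, *Ccr7*, *Ccr9*, *Cxcr4*, *Cxcr5*, *Cx3cr1* and *Ccrl2*. They were taken by symbol from the 21955 Ensembl gene identifiers of the count tables, and all 9 were found and passed the filter on low counts, which left 11903 genes. The study took these cells from mice of wild-type genotype that had met a social threat, and asked whether their state differs between the sexes. Its 6 libraries of poly-A RNA form 2 groups, 3 labelled male and 3 labelled female. Both groups had been exposed, so the exposure is shared and no unexposed library enters the comparison. The sources used here do not give strain, age, time after exposure or the number of animals behind a library. The p-values below therefore set the difference of the groups only against the spread among these libraries, and part of that spread may be technical. How it relates to the spread among animals is not known.

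Chemokine receptors are membrane proteins. Most are coupled to inhibitory G proteins, and cells that carry such receptors move towards the source of the ligand. Receptors named Ccr with a number bind CC chemokines, those named Cxcr with a number bind CXC chemokines, and Cx3cr1 binds the membrane-anchored chemokine Cx3cl1. In neutrophils, Cxcr4 holds cells in the bone marrow through its ligand Cxcl12, and Ccr1 responds to inflammatory CC chemokines. Ccr2 brings monocytes out of the marrow, Ccr3 marks eosinophils, Ccr7 takes dendritic cells and naive lymphocytes to lymph nodes, Ccr9 marks plasmacytoid dendritic cells and gut-homing lymphocytes, and Cxcr5 places B cells in follicles. Ccrl2 is an atypical receptor that binds chemerin and does not signal by itself.

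Total counts ran from 17098026 to 20778410 per library, and levels are given as CPM, the count of a gene relative to the TMM-scaled total of its library. The label female was not borne out by the Y-linked genes *Ddx3y*, *Eif2s3y*, *Kdm5d* and *Uty*, whose summed level was 307 to 318 CPM in the libraries labelled male and 312 to 328 CPM in those labelled female. Groups are therefore named by label only, and every direction below is one between libraries so labelled. Neutrophil markers summed to 53700 to 59200 CPM in the libraries labelled male and 60100 to 77400 CPM in those labelled female. Markers of granulocyte precursors summed to 5980 to 6060 and 5790 to 5990 CPM, and markers of monocytes to 5440 to 5560 and 5100 to 5400 CPM. Female replicate 3 stood apart from the other libraries labelled female, with a chi-square per degree of freedom of 13.4 and 16.5 against 5.14 between those. Mitochondrially encoded transcripts took 10.7 to 13.1% of counts in the libraries labelled male and 6.42 to 8.49% in those labelled female. Leaving these genes out changed no call among the 9 receptors, and neither did leaving out any single library.

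On a scale of CPM per kilobase of annotated exon, which takes account of gene length, *Cxcr4* was the most abundant of the 9. It had 343 ± 9.81 CPM per kilobase in the libraries labelled male and 322 ± 3.92 in those labelled female (SD, n = 3). *Ccr2* followed with 90.8 ± 4.2 and 130 ± 8.69 CPM per kilobase, and *Ccr1* with 38.8 ± 0.593 and 73.7 ± 4.39. *Ccrl2* (16.4 ± 0.132 and 13.3 ± 0.142), *Cx3cr1* (12.8 ± 0.597 and 12.6 ± 0.775) and *Ccr7* (12.6 ± 1.90 and 6.08 ± 0.573) came next. *Ccr9* (3.49 ± 0.234 and 2.19 ± 0.0939), *Cxcr5* (2.94 ± 0.263 and 1.48 ± 0.255) and *Ccr3* (0.453 ± 0.121 and 0.773 ± 0.0684) were lowest. The order of the group means was the same in both groups. The libraries of neighbouring genes did not overlap in this order, except for *Cx3cr1* and *Ccr7* in the libraries labelled male. The order rests on the length of all annotated exons, 1.81 kb for *Cxcr4* to 10.3 kb for *Ccr9*, and not of the transcripts expressed. In CPM, *Ccr2* lay above *Cxcr4* in the libraries labelled female, with means of 879 and 582. *Ccr9* lay above *Ccr7* over all 6 libraries, with means of 29.1 and 18.4 CPM.

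**Figure D1:**
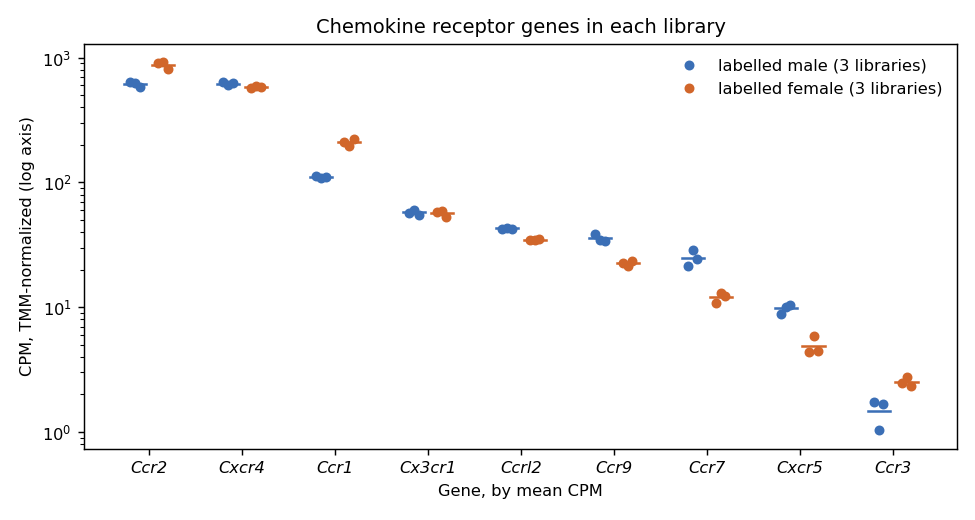
Level of each chemokine receptor gene in CPM on a log axis, with 1 point per library and a line at the mean of each labelled group of 3. *Ccr1* and *Ccr2* lie higher and *Ccr7*, *Ccr9*, *Cxcr5* and *Ccrl2* lower in the libraries labelled female, while the points of *Cx3cr1* overlap.

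Of the 9 receptor genes, 2 were higher and 4 lower where the label was female, at a threshold of 0.05 on the adjusted p (edgeR's quasi-likelihood test with Benjamini-Hochberg adjustment over all genes tested). Over all 11903 genes tested, 13.9% were called, 7.29% higher and 6.62% lower. The balance of 868 higher and 788 lower turned to 756 and 878 with upper-quartile factors, to 758 and 787 with the filter of 10 CPM in 3 libraries and to 834 and 838 without mitochondrially encoded genes. Fewer were higher than lower as well without male replicate 1, 2 or 3 (503 and 522, 486 and 496, 439 and 467). *Ccr1* and *Ccr2* were higher, and *Ccr7*, *Ccr9*, *Cxcr5* and *Ccrl2* were lower, while *Ccr3*, *Cxcr4* and *Cx3cr1* did not pass. For 8 of the 9 genes the CPM values of the groups did not overlap, as for 30.9% of all genes tested. The 9 genes were put together with earlier results of these data known, so their count describes these genes and not chemokine receptors at large.

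**Figure D2:**
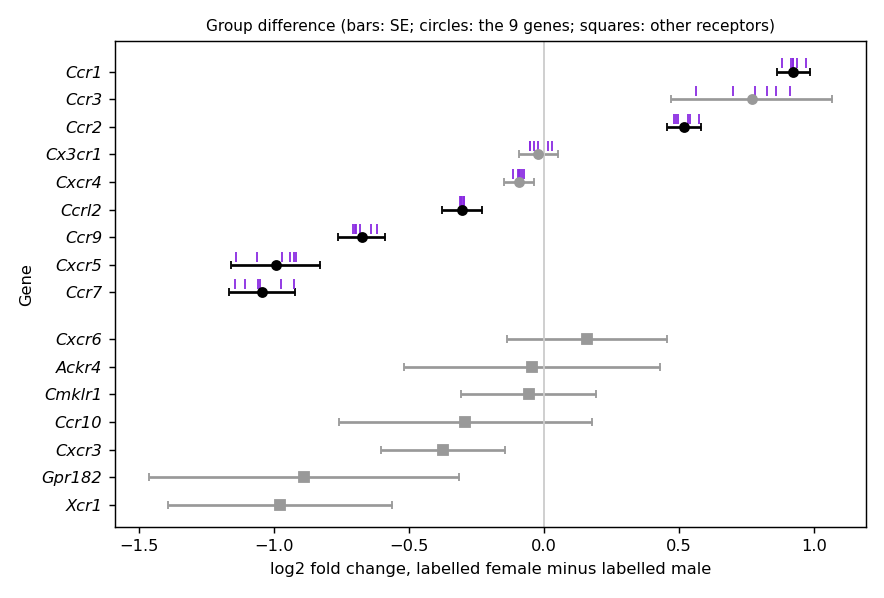
Log2 fold change with its SE for the 9 receptor genes (circles) and 7 other chemokine receptor genes tested (squares), black where adjusted p was under 0.05. Purple ticks give the fold change of each of the 9 genes with 1 library left out, and for the 6 called genes these ticks stay on the same side of 0.

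*Ccr1* (ENSMUSG00000025804, chromosome 9), the receptor of Ccl3 and related inflammatory chemokines, had the smallest adjusted p of the 9. It was counted at 112, 108 and 110 CPM in the libraries labelled male and at 210, 196 and 221 CPM in those labelled female. Every library labelled female was well above every library labelled male. The difference was 1.90-fold (log2 0.92, SE 0.061, adjusted p = 2.33e-09 by edgeR), from 110 ± 1.68 to 209 ± 12.4 CPM (SD, n = 3). The log2 difference ran from 0.88 to 0.97 with 1 library left out.

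Markers of neutrophils moved with *Ccr1*: of 10 genes, 7 were higher and none lower by edgeR, with a median log2 difference of 0.39 against 0.0016 over all genes tested. *Retnlg*, a resistin-like gene of mature neutrophils, was 2.38-fold higher, the collagenase gene *Mmp8* 1.95-fold and the gelatinase gene *Mmp9* by log2 0.77. *S100a9*, a calprotectin subunit and the most abundant of the list, was higher by log2 0.28, a call lost without any 1 library labelled male (adjusted p = 0.0764 to 0.148) and with the filter of 10 CPM in 3 libraries (adjusted p = 0.0754). None of these markers was at 0 in any library. Per 1000 CPM of the summed markers, *Ccr1* stood at 1.91, 2.02 and 1.86 CPM in the libraries labelled male and at 3.27, 3.26 and 2.85 CPM in those labelled female. These values had a ratio of means of 1.62, beside 1.18 for the summed markers themselves. Most of that sum came from *S100a9*, *Ngp*, *S100a8*, *Ltf* and *Camp*, with means of 17356 down to 3761 CPM. Their log2 differences were only 0.09 to 0.28, and *Ngp*, *Ltf* and *Camp* did not pass. *Retnlg* and *Mmp8*, at log2 1.25 and 0.96, differed by more than *Ccr1*, so the ratio depends on which markers weigh most. The part of the number of neutrophils in the *Ccr1* difference was not tested. In bulk RNA, more cells of a type and more RNA per cell cannot be told apart, here and for the genes below.

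*Ccr2* (ENSMUSG00000049103, chromosome 9), the receptor of Ccl2, was the other gene that was higher. It was counted at 633, 627 and 581 CPM in the libraries labelled male and at 909, 916 and 811 CPM in those labelled female. The lowest library labelled female, replicate 3, lay above the highest labelled male. The difference was 1.43-fold (log2 0.52, SE 0.062, adjusted p = 5.32e-06 by edgeR).

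Markers of monocytes, the cells best known for *Ccr2*, did not follow it as a list. Of 8 markers, 1 was higher and 2 were lower, with a median log2 difference of -0.04, and none was at 0 in any library. *F13a1*, a coagulation factor gene of monocytes, was higher (log2 0.32, adjusted p = 0.00223 by edgeR). *Klf4* and *Nr4a1*, transcription factors that are also induced by acute stimuli, were both lower at log2 -0.50. *Csf1r*, the receptor that defines the lineage, stood at 221, 220 and 218 CPM in the libraries labelled male and 218, 222 and 209 CPM in those labelled female. Per 1000 CPM of the summed monocyte markers, *Ccr2* stood at 107 to 115 CPM in the libraries labelled male and at 159 to 175 CPM in those labelled female, a ratio of means of 1.5. Within that sum *Klf4* and *Nr4a1* averaged 597 and 738 CPM in the libraries labelled male and 423 and 523 CPM in those labelled female. *F13a1* went the other way, from 990 to 1234 CPM. Of the 8 markers 2 had a positive log2 difference and 6 a negative one. The size of the ratio therefore depends on which markers weigh most. The part of monocytes in the *Ccr2* difference was not tested.

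The promoters of *Ccr1* and *Ccr2* are shown because both genes were higher and stand in 1 cluster. The windows hold 250 bases before and 50 after the annotated start, are written in the direction of the gene, and come from RefSeq on GRCm38.p6, an older build than that of the files. *Ccr1* lies at chr9:123968643-123968942 on the minus strand and *Ccr2* at chr9:124101933-124102232 on the plus strand. Capitals would mark a match, on either strand, to the PU.1 core GAGGAAGT, the AP-1 site TGANTCA, the interferon-stimulated response element core, the cyclic AMP response element core TGACGTCA or the NF-kB consensus; matches may overlap.
Ccr1: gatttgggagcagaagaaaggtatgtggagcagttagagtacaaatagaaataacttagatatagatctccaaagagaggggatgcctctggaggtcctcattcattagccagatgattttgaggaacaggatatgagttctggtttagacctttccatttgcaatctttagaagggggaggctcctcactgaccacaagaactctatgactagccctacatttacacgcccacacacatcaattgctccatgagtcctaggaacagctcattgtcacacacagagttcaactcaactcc
Ccr2: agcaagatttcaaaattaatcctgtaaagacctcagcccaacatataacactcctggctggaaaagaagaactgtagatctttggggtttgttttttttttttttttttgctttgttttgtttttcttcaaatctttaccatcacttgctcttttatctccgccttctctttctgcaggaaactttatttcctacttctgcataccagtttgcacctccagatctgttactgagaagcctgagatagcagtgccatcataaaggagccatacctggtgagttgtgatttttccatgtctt
Neither window holds any of these letters, which are found in 3.20%, 7.81%, 3.44%, 1.79% and 4.51% of 32851 promoter windows of the same length, in the order given. That says only that these letters are not in these windows, and the windows of *Cxcr4* and *Cx3cr1* hold none either. *Ccr3* holds an AP-1 and an NF-kB match.

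*Ccr3* (ENSMUSG00000035448, chromosome 9), the eotaxin receptor of eosinophils, was the scarcest of the 9, with 18 to 55 counts per library. It stood at 1.75, 1.03 and 1.67 CPM in the libraries labelled male and 2.49, 2.77 and 2.33 CPM in those labelled female. The groups did not overlap, but the difference did not pass the test (log2 0.77, SE 0.30, adjusted p = 0.094 by edgeR), and it ran from 0.56 to 0.91 with 1 library left out. Among the libraries labelled male the spread was 26.7% of the mean, where counting error alone gives 19.7%, so the depth limits what can be said of this gene. Summed eosinophil markers were at 72.6 to 81.5 CPM in the libraries labelled male and 80.7 to 85.8 CPM in those labelled female, and *Ear1* and *Ear6* had 0 counts in male replicate 1. None of the 7 tested eosinophil markers passed by edgeR, DESeq2 or limma-voom, while 4 had an unadjusted p under 0.05 by edgeR. These 4 went in both directions, with *Siglecf* and *Ear2* at log2 0.32 and 0.20 and *Il5ra* and *Alox15* at -1.17 and -0.37. In 6 of 14 alternatives 1 marker passed, though not the same gene in all of them. A marker was lower with upper-quartile factors, with no filter, without mitochondrially encoded genes, with the replicate block and without male replicate 1. Without female replicate 3 a different marker passed, and it was higher. The part of eosinophils in the *Ccr3* values was not tested.

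*Ccr1*, *Ccr3* and *Ccr2* neighbour each other on chromosome 9, with *Ccr9*, *Cxcr6* and *Xcr1* on 1 side of them. Genes of this stretch differed in opposite directions. *Ccr9*, at 1 end, was lower, and *Ccr1* and *Ccr2* towards the other were higher. *Lztfl1* and *Fyco1*, which encode trafficking proteins and lie between *Ccr9* and *Cxcr6*, had log2 differences of 0.18 (SE 0.14) and -0.11 (SE 0.10) and did not pass. *Cxcr6*, at 2.80 and 3.14 CPM on average, and *Xcr1*, at 1.17 and 0.590 CPM, did not pass either (adjusted p = 0.774 and 0.129 by edgeR). *Ccr1l1* had at most 1 count in a library. Of the distinct stretches of 50 bases in annotated *Ccr2* transcripts, 1.91% also occur in transcripts of other genes, and none in *Ccr1* or *Ccr3* transcripts occur in another gene.

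**Figure D3:**
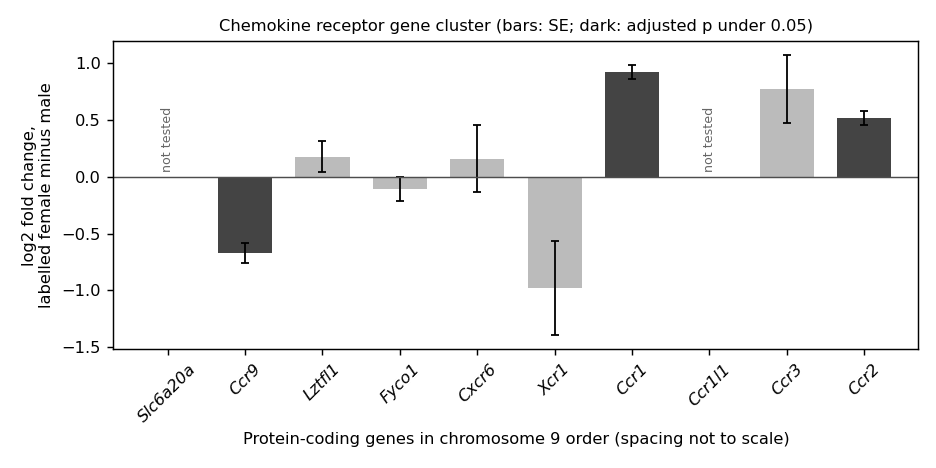
Log2 fold change (bars, with SE) of protein-coding genes of the chemokine receptor cluster in their order along chromosome 9, dark where adjusted p was under 0.05; *Slc6a20a* and *Ccr1l1* were not tested. *Ccr9* points down at -0.67, while *Ccr1* and *Ccr2* point up at 0.92 and 0.52.

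*Ccr7* (ENSMUSG00000037944, chromosome 11), the receptor of Ccl19 and Ccl21, was lower in the libraries labelled female. Its levels were 21.4, 28.8 and 24.4 CPM in the libraries labelled male and 10.8, 13.1 and 12.2 CPM in those labelled female. The groups were far apart, with male replicate 2 highest. The difference was 2.06-fold (log2 -1.04, SE 0.12, adjusted p = 3.90e-06 by edgeR), and it ran from -1.14 to -0.92 with 1 library left out. The spread among the libraries labelled male was 15.1% of the mean, against 4.82% from counting error alone.

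Cells known to carry *Ccr7* were read through their own markers. Of 13 B cell markers 8 were lower and none higher, and their sum was 313, 383 and 347 CPM in the libraries labelled male and 192, 265 and 246 CPM in those labelled female. Of 8 markers of conventional dendritic cells 3 were lower and none higher, and the sum was 155 to 168 CPM in the libraries labelled male and 125 to 127 CPM in the others. *Clec9a*, a receptor for dead cells, and the lectin gene *Clec10a* differed by log2 -0.76 and -0.46. *Flt3*, the growth factor receptor of dendritic cells, differed by -0.27, and did not pass with male replicate 1 or 3 omitted (adjusted p = 0.0888 and 0.0656). Markers of migratory dendritic cells were scarce, 9.32 to 14.8 CPM in sum over 8 genes, of which 4 passed the filter and *Cacnb3* was lower. That call was lost without any single library other than female replicate 3 (adjusted p = 0.0925 to 0.175) and with no filter on low counts (adjusted p = 0.0887), and DESeq2 called none of the list. Without female replicate 3, 2 of the list were lower. *Ccl22*, *Apol7c* and *Tmem150c*, of the same list, had 0 counts in at least 1 library. T cell markers overlapped between the groups, at 62.6 to 75.7 and 51.9 to 73.7 CPM in sum. Among the libraries labelled male, replicate 2, the highest for *Ccr7*, was highest for the B cell, T cell and migratory dendritic cell sums and lowest for the conventional dendritic cell sum. It was also highest for the summed markers of natural killer cells, eosinophils and endothelial cells. Among the libraries labelled female, replicate 2 was again highest for *Ccr7* and for the B cell and T cell sums. There it was lowest for the migratory and highest for the conventional dendritic cell sum. Of the 9 T cell markers, *Cd4* was lower, which did not pass when male replicate 2 was omitted (adjusted p = 0.0816).

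Set against these sums, *Ccr7* still separated the groups. Per 1000 CPM of the B cell sum it stood at 68.2 to 75.1 CPM in the libraries labelled male and 49.4 to 56.3 CPM in those labelled female. Against the conventional dendritic cell sum the values were 127 to 186 and 86.7 to 104 CPM. Against the migratory dendritic cell sum they were 1650 to 1950 and 1110 to 1410 CPM, and against the T cell sum 341 to 388 and 178 to 234 CPM. The groups did not overlap on any of these scales. Most of the migratory dendritic cell sum came from *Relb*, at 8.76 CPM on average, which did not pass (log2 -0.29). The other markers tested, *Cacnb3*, *Il4i1* and *Nudt17*, differed by log2 -1.70, -1.06 and -0.76, and the median of the list was -0.91. The ratio to this sum therefore depends on which markers weigh most. What part of the *Ccr7* difference comes from the makeup of the cells was not tested.

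*Ccr9* (ENSMUSG00000029530, chromosome 9), the receptor of Ccl25, was lower as well. It was counted at 38.5, 34.7 and 34.1 CPM in the libraries labelled male and at 22.6, 21.4 and 23.3 CPM in those labelled female. Each group was narrow and the groups did not overlap. The difference was 1.60-fold (log2 -0.67, SE 0.088, adjusted p = 1.58e-05 by edgeR).

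Of 7 markers of plasmacytoid dendritic cells, 6 were lower in the same libraries and none higher, and none was at 0. Their sum was 501 to 518 CPM in the libraries labelled male and 367 to 386 CPM in those labelled female. The median log2 difference of the list was -0.44, smaller in size than that of *Ccr9*. *Siglech*, the lectin receptor that defines these cells, was at 144, 135 and 147 CPM against 93.0, 85.4 and 97.1 CPM (log2 -0.63, adjusted p = 7.80e-07 by edgeR), close to the difference of *Ccr9*. *Klk1*, a kallikrein gene, was lower by log2 -0.91, and the transcription factor gene *Runx2*, the most abundant of the list, by -0.25, though not without male replicate 2 or 3 or female replicate 2 (adjusted p = 0.0542, 0.101 and 0.0661). *Pacsin1* was lower by log2 -0.46, a call lost by DESeq2 and without any library other than female replicate 3 (adjusted p = 0.0508 to 0.157). For every 1000 CPM of the marker sum *Ccr9* stood at 65.8 to 76.2 CPM in the libraries labelled male and 58.3 to 61.0 CPM in those labelled female, a ratio of means of 0.849. What part the cell makeup has in the difference of *Ccr9* was not tested. An annotated transcript of another gene on the opposite strand covers 18.8% of the exon bases of *Ccr9*, and reads from the pair cannot be told apart without strand.

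The promoter of *Ccr9* is shown beside the results for the cluster, as that of the member that went the other way. It lies at chr9:123766961-123767260 on the plus strand (RefSeq, GRCm38.p6) and holds none of the motifs searched.
Ccr9: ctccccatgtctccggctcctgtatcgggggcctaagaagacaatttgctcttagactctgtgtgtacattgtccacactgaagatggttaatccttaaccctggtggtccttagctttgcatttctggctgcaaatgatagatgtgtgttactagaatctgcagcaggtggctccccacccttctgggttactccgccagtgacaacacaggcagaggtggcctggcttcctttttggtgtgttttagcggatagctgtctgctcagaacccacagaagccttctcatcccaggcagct
Its share of G and C was 51.3%, against 44.0% in the window of *Ccr1* and 38.0% in that of *Ccr2*. The windows of *Cxcr4*, *Cx3cr1* and *Ccr3*, which did not pass, had 59.3%, 54.3% and 39.0%. Those of *Ccrl2*, which was lower, had 52.0 to 53.0%.

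*Cxcr5* (ENSMUSG00000047880, chromosome 9), the receptor of Cxcl13 on B cells and follicular T cells, was lower by nearly as much as *Ccr7*. Its levels were 8.81, 10.1 and 10.5 CPM in the libraries labelled male and 4.39, 5.90 and 4.46 CPM in those labelled female. The groups did not overlap. The difference was 1.99-fold (log2 -0.99, SE 0.16, adjusted p = 0.000281 by edgeR).

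The B cell markers named above had a median log2 difference of -0.61. *Fcer2a*, the low-affinity IgE receptor of follicular B cells, differed most, by log2 -1.08. *Cd22*, an inhibitory receptor, and *Ms4a1*, which encodes CD20, differed by -0.80 and -0.79. None of the 13 markers was at 0 in any library. Relative to 1000 CPM of the B cell sum, *Cxcr5* stood at 26.3 to 30.2 CPM in the libraries labelled male and at 18.1 to 22.8 CPM in those labelled female. What part of the *Cxcr5* difference comes from the number of B cells was not tested.

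**Figure D4:**
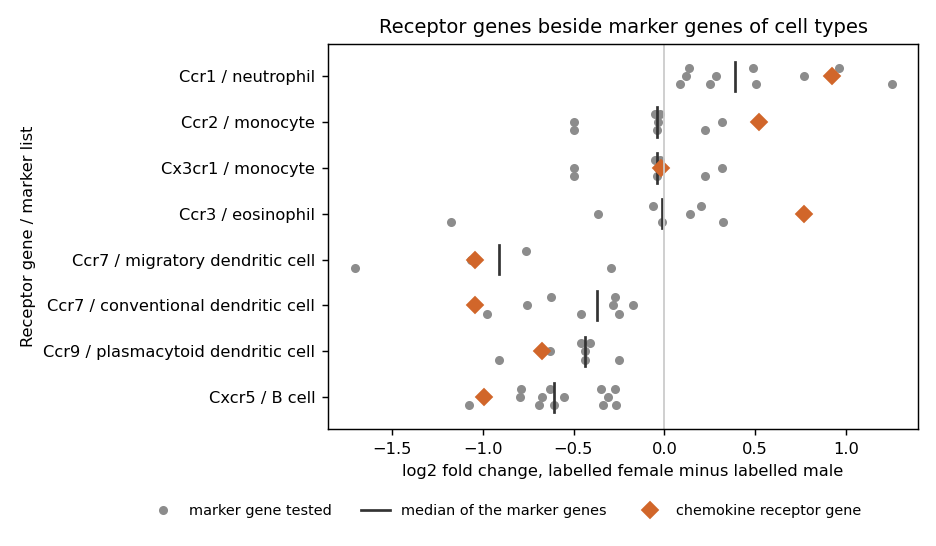
Log2 fold change of receptor genes (diamonds) beside that of each tested marker gene (grey points) of a cell type known to carry them, with the median of the markers as a line. *Ccr9* at -0.67 lies below the median of its list at -0.44 and within the range of its markers, whereas *Ccr2* at 0.52 lies above all 8 monocyte markers.

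**Figure D5:**
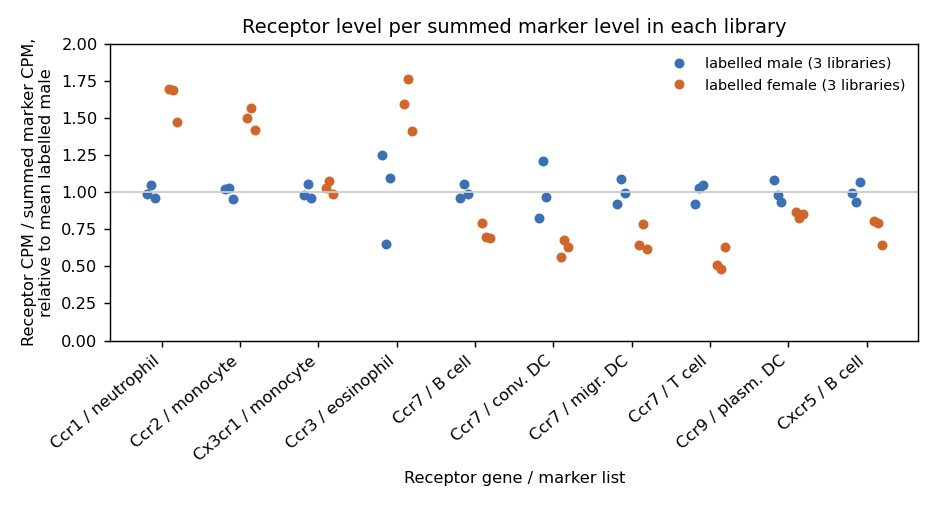
CPM of a receptor gene divided by the summed CPM of a marker list in each library, relative to the mean of the libraries labelled male. The ratio of *Ccr1* to neutrophil markers and of *Ccr2* to monocyte markers is higher in the libraries labelled female, that of *Cx3cr1* to monocyte markers overlaps, and those of *Ccr7*, *Ccr9* and *Cxcr5* are lower.

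*Cxcr4* (ENSMUSG00000045382, chromosome 1), the receptor of Cxcl12, differed little. It was counted at 636, 601 and 623 CPM in the libraries labelled male and at 574, 588 and 584 CPM in those labelled female. The groups did not overlap, but the gap was small and the difference did not pass (log2 -0.09, SE 0.054, adjusted p = 0.293 by edgeR). With 1 library left out it ran from -0.11 to -0.07. This gene had 10460 to 11780 counts per library, so counting error was only 0.964% and 0.935% of the level in the groups.

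*Cx3cr1* (ENSMUSG00000052336, chromosome 9), the fractalkine receptor of monocytes, macrophages and natural killer cells, gave overlapping groups. It stood at 57.4, 60.4 and 55.0 CPM in the libraries labelled male and 58.4, 59.3 and 52.8 CPM in those labelled female (log2 -0.02, SE 0.071, adjusted p = 0.886 by edgeR). Against 1000 CPM of the monocyte marker sum it stood at 10.1 to 11.1 and 10.4 to 11.3 CPM. The summed markers of macrophages (111 to 128 and 125 to 138 CPM) and of natural killer cells (50 to 62.7 and 33.3 to 57.9 CPM) overlapped between the groups too. Gene by gene they leaned in opposite directions. Of 10 macrophage markers 8 had a positive log2 difference (median 0.23), and all 7 natural killer cell markers had a negative one (median -0.38).

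*Ccrl2* (ENSMUSG00000043953, chromosome 9), the atypical chemerin-binding receptor, was lower by the least of the called genes. It was counted at 42.5, 43.1 and 42.6 CPM in the libraries labelled male and at 34.3, 34.6 and 35.0 CPM in those labelled female. Libraries of a group were nearly equal, and the groups were clearly apart. The difference was 1.23-fold (log2 -0.30, SE 0.074, adjusted p = 0.00829 by edgeR), with adjusted p up to 0.0423 over the alternatives tried. The spread within groups, 0.804% and 1.06% of the mean, was below the 3.67% and 3.83% that counting error alone gives. *Ltf*, the lactoferrin gene that lies next to it on chromosome 9, had a log2 difference of 0.13 (adjusted p = 0.317). Of the 3 annotated promoter windows of *Ccrl2*, the 1 at chr9:111057469-111057768 on the minus strand (RefSeq, GRCm38.p6) holds a match to the NF-kB consensus, in capitals, starting 56 bases before the annotated start.
Ccrl2: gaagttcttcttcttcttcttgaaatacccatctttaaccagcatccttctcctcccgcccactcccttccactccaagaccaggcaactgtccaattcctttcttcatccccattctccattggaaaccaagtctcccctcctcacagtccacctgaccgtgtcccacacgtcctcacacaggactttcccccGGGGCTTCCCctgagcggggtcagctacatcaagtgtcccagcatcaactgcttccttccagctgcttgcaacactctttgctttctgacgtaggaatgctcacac
The match is a description of the letters and not a site shown to be used, and 4.51% of all windows hold one.

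Other chemokine receptors were mostly scarce. Of 17 further receptor genes listed, 16 had a row, and 8 of these passed the filter. The other 8 had 0 to 12 counts per library. *Cxcr2*, the main receptor of neutrophils for CXC chemokines, is not analysed here. *Cxcr3*, the receptor of interferon-induced chemokines on T and natural killer cells, had 4.91 to 6.10 and 3.12 to 5.90 CPM, and did not pass (adjusted p = 0.311 by edgeR). The median log2 difference of the 8 genes was -0.17, against 0.0016 over all genes tested, and none of them was called lower by edgeR. *Ccr10*, *Xcr1*, *Ackr4* and *Gpr182* averaged only 0.484 to 0.881 CPM, with SE of 0.42 to 0.57, so this median is imprecise.

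Ligands of the 9 receptors were read from a list of 17 genes, of which 8 passed the filter. Of these, 1 was higher and 4 lower, and without female replicate 1 there were 1 and 2. *Cxcl12*, the ligand of Cxcr4, was at 41.7, 36.3 and 34.4 CPM in the libraries labelled male and at 17.6, 18.7 and 21.4 CPM in those labelled female (log2 -0.96, adjusted p = 8.50e-07 by edgeR). *Ccl2*, the ligand of Ccr2, was at 123, 111 and 120 against 68.2, 76.8 and 80.7 CPM (log2 -0.65), the opposite direction from its receptor. *Ccl7*, another Ccr2 ligand, was lower by log2 -1.37 at 12 to 42 counts, a call lost without male replicate 1, female replicate 1 or female replicate 2 (adjusted p = 0.118, 0.0513 and 0.0763). *Ccl19* and *Ccl21a*, the ligands of Ccr7, and *Ccl11*, a ligand of Ccr3, had 0 counts in all 6 libraries. A count of 0 allows a level of up to 0.149 to 0.179 CPM, depending on the library, for counting error only.

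Downstream of the receptors, 21 genes of G proteins, phosphoinositide 3-kinase gamma, Rac and phospholipase C were all tested, and 7 were higher and 1 lower. Without male replicate 2 or 3 there were 3 higher and 1 lower. *Fgr*, a Src-family kinase of myeloid cells, was higher (log2 0.31, adjusted p = 0.00409 by edgeR), and so was *Gnai3*, an inhibitory G protein subunit (0.26, adjusted p = 0.00449). *Pik3r6*, a regulatory subunit of phosphoinositide 3-kinase gamma, was lower (log2 -0.29, adjusted p = 0.00712). The median over the list was 0.11 on the log2 scale.

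Receptor kinases, arrestins and RGS proteins, which end receptor signalling, showed 1 higher and 2 lower of 13 genes. Without female replicate 3 there were 1 and 4, and with no filter on low counts 3 and 2. *Rgs18* was higher (log2 0.29, adjusted p = 0.00359 by edgeR). *Grk3*, a receptor kinase, was lower by log2 -0.32 but not without male replicate 3 (adjusted p = 0.0827). *Rgs1* was lower by log2 -0.27 but not without male replicate 1 (adjusted p = 0.0812). The median was -0.0039.

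Among surface genes used to follow neutrophil ageing, a set in which *Cxcr4* is read together with adhesion molecules, 8 of 9 had a row, and 3 were higher and 1 lower. *Tlr4*, the endotoxin receptor, was higher (log2 0.49, adjusted p = 0.00478 by edgeR). *Itgam*, the integrin CD11b, was higher by 0.31 but not without male replicate 2 (adjusted p = 0.0509). *Icam1* was lower by log2 -0.35, a call lost without male replicate 1, 2 or 3 or female replicate 2 (adjusted p = 0.0667 to 0.112). The number called, in place of 4, was 2 without male replicate 1 or 3 and 1 without male replicate 2.

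The genes whose profiles over the 6 libraries lay closest to those of the called receptors were found by the root mean square difference of log2 CPM after centring each gene on its mean, among 10511 genes. For *Ccr1* these were *Thbs1* (0.047), *Il1b* (0.062) and *Mmp8* (0.064), and *Mmp8* stands in the neutrophil list. For *Ccr7* they were *Cxcr5* (0.12), the costimulatory gene *Cd83* (0.13) and the B cell gene *Ms4a1* (0.14). For *Ccr9* they were *Lrrc45* (0.040), *Anpep* (0.047) and *Phf11c* (0.052). For *Cxcr5* they were *Egr3* (0.064), *Lgals3bp* (0.084) and *Rasgrp3* (0.099). For *Ccr2* they were *Jrkl* (0.046), *Car2* (0.052) and *Hsph1* (0.054). For *Ccrl2* they were *Ikbkb* (0.017), which encodes the NF-kB kinase subunit, *Gigyf1* (0.025) and *A630001G21Rik* (0.026). With 6 libraries in 2 groups, these distances are a description and carry no test.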

How the data were processed

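Poly-A RNA of dural neutrophils was sequenced in 6 libraries. The authors deposited raw counts per gene, with no normalization. Per the submitters' processing notes, cutadapt 1.15, HISAT2 2.0.5 and GRCm39 were used. Sources used here name no counting tool or strand setting (not given). Symbols and exon lengths came from GENCODE M21, an older build.

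Testing used edgeR's quasi-likelihood test (edgeR 4.0.16, R 4.3.3) on these counts, with TMM scaling, filterByExpr at its minimum count of 10, Benjamini-Hochberg adjustment to a threshold of 0.05, and the labelled group as the only term. Differences are labelled female minus labelled male. The pipeline was tested on simulated counts. Alternatives were 2 other scalings, DESeq2 1.42.0, limma-voom (limma 3.58.1), 2 other filters, no mitochondrially encoded genes, a replicate block and the omission of each library; applying them to genes other than the 9 receptors and to lists was added after seeing the data.

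The receptors and all lists were chosen with earlier results of these data known. Named from the lists were all called receptors and the 3 most abundant, the 3 largest called differences of each other list, the most abundant marker of each cell type, and the 3 genes most like each called receptor (mean log2 CPM of at least 1, pseudocount 0.5); some of these are not reported here. *Csf1r*, *Ltf*, *Xcr1*, *Lztfl1*, *Fyco1*, *Ccr1l1* and genes with counts of 0 were named after their values were seen. So were *Il4i1*, *Nudt17*, *Siglecf*, *Il5ra*, *Alox15*, *Ccr10*, *Ackr4* and *Gpr182*. Motifs were chosen after the promoters had been seen. Libraries of a group were compared 2 at a time by chi-square. All pairs differed beyond sampling noise (4.10 to 16.5 per degree of freedom), and each library was treated as 1 replicate. Such differences do not show that the libraries came from different animals.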

Additional observations from a re-analysis of the deposited data

How the results depend on the processing

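All 6 receptor calls and the 3 genes that did not pass stayed as given under each alternative that tested them; *Ccr3* and *Cxcr5* fell out of the test at 10 CPM in 3 libraries, which left 5 calls. The sign of *Cx3cr1*, never called, went both ways, from log2 -0.05 to 0.03. Over all genes, 1656 calls became 906 to 2708 with 1 library left out, with 1025, 982 and 906 without male replicate 1, 2 and 3 and 2708 without female replicate 3; the cause was not tested. Scaling moved the median log2 difference of all genes from 0.0016 to -0.0124 at most. Depth limits *Ccr3* most.

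The replicate number as a block gave 1921 calls over all genes and the same 6 receptor calls. Deviations of same-numbered libraries correlated at -0.04, 0.06 and 0.06, so the numbers were not taken to pair them, and not every library correlated best with its own number.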
